A study of Mus musculus with 4 samples.

Results

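Il4-low iNKT2 cells are thymic invariant natural killer T (iNKT) cells that carry the surface and nuclear markers of the iNKT2 subset but few Il4 transcripts. They were chosen from unique molecular identifiers (UMIs, 1 per captured transcript) counted in single cells. A cell with at least 500 genes, at least 1000 UMIs and at most 10% mitochondrial UMIs was a member when it met 5 conditions. Zbtb16, Il17rb, Izumo1r, Plac8 and Icos together had at least 8 UMIs. That sum was more than 2 times the sum of Nkg7, Klrd1, Il2rb, Klrk1 and Xcl1. Fewer than 6 UMIs fell on Il23r, Blk, Il1r1, Tmem176a, Tmem176b, Pxdc1 and Serpinb1a, and fewer than 4 on Mki67, Top2a, Birc5, Cdk1, Rrm2 and Pclaf. The cell had fewer than 5 Il4 UMIs. The rule found 2129 members among 15767 kept cells. The 736 cells that met the other conditions with 5 or more Il4 UMIs are called Il4-high, and both together are the iNKT2 gate.

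The members came from thymus of 2 inbred mouse strains, given in the labels by the names BALB/c and B6 with no other allele or treatment. Cells positive for CD3 and for a PBS57-loaded CD1d reagent were sorted and profiled by 10x Genomics 5' single-cell RNA sequencing, with 2 libraries per strain. BALB/c 1 and BALB/c 2 held 547 and 409 members, and B6 1 and B6 2 held 167 and 1006. The labels state neither age nor sex, nor whether libraries came from separate mice, so p-values measure only the spread between these libraries, which may be technical.

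iNKT cells recognise lipids on CD1d through a largely invariant T cell receptor (TCR). The factor PLZF, made by Zbtb16, gives them an innate-like program, and they divide in the thymus into iNKT1 cells led by T-bet, iNKT2 cells with high PLZF and GATA3, and iNKT17 cells, which make interleukin 17. iNKT2 cells are known as a source of interleukin 4 in the thymus at steady state, and BALB/c mice are known to hold more of them than B6 mice. Il4 and Il13 are neighbouring genes that T cells open together in type 2 differentiation and transcribe in bursts after TCR signals, in which the calcium-dependent NFAT factors take part.

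Total UMIs per library ran from 20406245 to 82904358, with the largest total in B6 2, which also had the most kept cells (9546). Kept cells had a median of 11044.5, 9230, 7056 and 7058 UMIs in BALB/c 1 and 2 and B6 1 and 2. Members had a median of 13438 and 14167 UMIs in BALB/c 1 and 2 and 11407 and 11076.5 in B6 1 and 2. Il4-high cells had 17223.5, 17691, 18645 and 17569.5 in the same order, so the Il4 threshold divided the gate by depth as well. Cell Ranger 7.1.0 stands in the file header of B6 2 and 6.0.0 in those of the other 3 libraries. Whether both counted intronic reads alike is not stated in these sources, so values of B6 2 may differ from the others in what was counted. With cells thinned to 5000 UMIs, members had 1853, 1849, 1874 and 2005 genes on average in BALB/c 1 and 2 and B6 1 and 2. Il4-high cells had 1848, 1822, 1839 and 1974, so B6 2 was highest in both. The cause was not tested. The summed members of the B6 libraries lay farther apart than those of BALB/c (chi-square per degree of freedom across genes 13.3 against 2.38). Between libraries, 104 barcodes of kept cells were shared, 5 of them between members.

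Levels below are CPM, the share of all UMIs that a gene takes scaled to a common total, of the summed cells of a library. The genes that chose the members are given as a description, with no test. On TMM-scaled CPM (scaled by edgeR's trimmed mean of M values), Zbtb16 stood at 514 and 504 in BALB/c 1 and 2 and at 399 and 741 in B6 1 and 2. Icos, a costimulatory receptor, stood at 519 and 529 in BALB/c libraries and 807 and 805 in B6 libraries. Izumo1r, which encodes the folate receptor family member FR4, stood at 589.9 and 596 in BALB/c libraries and 767 and 550.3 in B6 libraries. Il17rb, the receptor subunit for interleukin 25, was at 35.7 and 53.6 in BALB/c libraries and 83.7 and 81.2 in B6 libraries. Plac8 was at 131 and 141 in BALB/c libraries and 265 and 239 in B6 libraries. The marker sum lay far above its threshold in most members, with medians of 21, 23, 25 and 27 UMIs in BALB/c 1 and 2 and B6 1 and 2. Il4-high cells, which were also deeper, had higher medians of 32, 34, 46 and 54 UMIs in the same order. At its edge, 11, 9, 3 and 16 members had exactly 8 UMIs, and 14, 4, 5 and 16 cells just outside had 7 and met every other condition.

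Markers that the rule did not use were set against the cells of an iNKT1 gate (the NK-receptor sum at least 8 and more than 2 times the iNKT2 sum), on CPM without scaling factors. Ccr4, a chemokine receptor of type 2 lymphocytes, stood at 173, 182, 94.2 and 102 CPM in members of BALB/c 1 and 2 and B6 1 and 2, against 8.91, 3.15, 3.23 and 5.98 in iNKT1-gate cells. Hivep3, a large zinc finger factor needed for innate-like T cells, stood at 141, 135, 102 and 136 against 23.1, 14.3, 21.4 and 36.3. Both groups of values were apart in every library. Gata3 was less distinct, at 87.6, 87.8, 109 and 101 in members against 71.3, 83.8, 75.2 and 74.7. The iNKT1 effector chemokine Ccl5 was at 2.07, 1.99, 8.70 and 12.0 in members, against 3323, 2298, 859 and 511 in the iNKT1 gate. Il17a was at 0 in members of 3 libraries and at 0.167 CPM in B6 2. Ccr4, Hivep3 and Ccl5 thus went with the label in every library, while Gata3 separated the groups less. Thinned to 5000 UMIs, 6.95%, 10.0%, 43.4% and 43.3% of members had a Cxcr3 UMI, against 64.1%, 64.4%, 73.3% and 78.7% of iNKT1-gate cells. For Tbx21, the T-bet gene, the shares were 3.01%, 3.92%, 14.5% and 23.8% against 50.6%, 47.6%, 48.2% and 58.0%. Both iNKT1 genes were rarer in members of every library, but a part of the B6 members held them.

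Few members held several UMIs of the B cell, double-positive thymocyte or myeloid genes counted here. At least 3 UMIs of B cell, double-positive thymocyte or myeloid genes were found in 5, 2, 1 and 6 members of BALB/c 1 and 2 and B6 1 and 2. One member of BALB/c 2 reached 3 UMIs of B cell genes, and none reached 3 of myeloid genes. Foxp3, which defines regulatory T cells, was at 0 in BALB/c 1 and B6 1 and at 0.166 and 0.251 CPM in BALB/c 2 and B6 2. Rag2 was at 0 in BALB/c 2 and B6 1, and at 0.129 and 0.669 in BALB/c 1 and B6 2. Summed levels of whole lists, without scaling factors, were not all low in BALB/c 1 and 2 and B6 1 and 2. The 7 regulatory T genes held 183, 203, 134 and 241 CPM in members, against 83.8, 61.2, 68.6 and 115 in the iNKT1 gate. The 10 double-positive genes, Cd4 among them, held 157, 150, 123 and 203 against 140, 107, 84.3 and 103. Gamma-delta T sums were higher in members of every library as well, while B cell and myeloid sums were lower.

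Il4 was found in most members, at a low count. No Il4 UMI was found in 155, 88, 69 and 401 members of BALB/c 1 and 2 and B6 1 and 2, which is 28.3%, 21.5%, 41.3% and 39.9% of them. The mean was 1.56, 1.81, 1.14 and 1.17 Il4 UMIs per member, against 13.0, 11.6, 9.23 and 11.6 per Il4-high cell. Nothing in the distribution marked a boundary at the threshold: 57, 59, 13 and 53 members had 4 Il4 UMIs, and 34, 40, 7 and 51 cells just outside had 5. After each cell was thinned to 5000 UMIs, 40.8%, 48.0%, 38.2% and 39.5% of members had an Il4 UMI, against 11.4%, 8.86%, 18.7% and 24.0% of iNKT1-gate cells. Without thinning these shares were 71.7%, 78.5%, 58.7% and 60.1% against 12.7%, 12.1%, 24.3% and 30.3%, at iNKT1-gate medians of 6560, 6884.5, 7085.5 and 6876 UMIs.

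**Figure D1:**
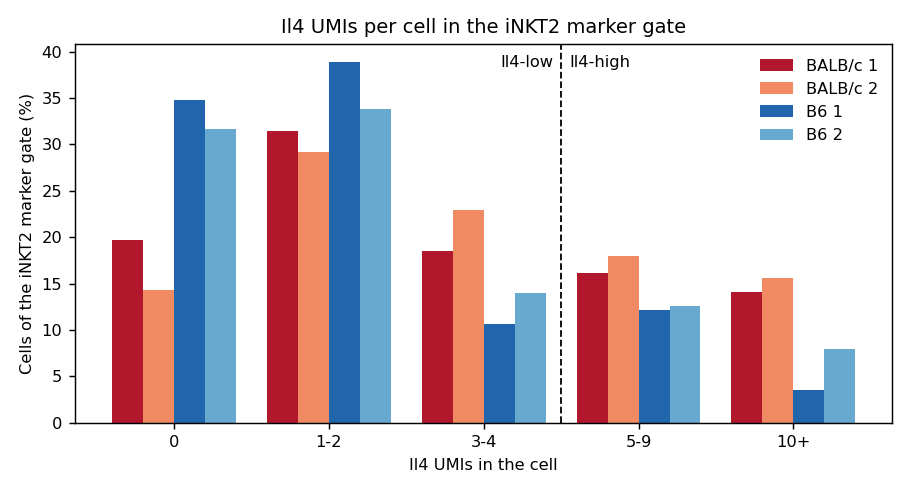
Share of the cells of the iNKT2 gate (%, y axis) by the number of Il4 UMIs in the cell (x axis), with 1 bar per library and the rule's threshold as a dashed line. Cells with 0 Il4 UMIs were 19.7% and 14.3% of the gate in BALB/c 1 and 2 and 34.8% and 31.7% in B6 1 and 2.

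BALB/c thymus held more Il4-low iNKT2 cells among its sorted cells than B6 thymus, but they were a smaller part of its iNKT2 gate. In BALB/c 1 and 2 the members made up 28.9% and 21.0% of kept cells (exact binomial 95% intervals 26.8 to 30.9 and 19.2 to 22.9) and 7.02% and 10.5% in B6 1 and 2 (6.03 to 8.12 and 9.93 to 11.2). The intervals cover counting error only. The strains did not overlap, with a mean of 24.9% ± 5.55 over BALB/c and 8.78% ± 2.49 over B6 libraries (SD, n = 2 each). The difference of 16.1 percentage points had an exact two-sided permutation p of 0.333, the smallest that 2 against 2 libraries allow. Within the gate, members were 69.7% and 66.4% of cells in BALB/c libraries and 84.3% and 79.5% in B6 libraries (68.0% ± 2.32 against 81.9% ± 3.45, SD, n = 2 each), so the difference of -13.9 points also kept the strains apart (exact permutation p = 0.333). Both differences moved with the way depth and threshold were set. When the rule was applied to cells thinned to 5000 UMIs, they were 14.0 points of kept cells and -4.76 points of the gate. A threshold per 10000 UMIs gave 20.4 and -9.83 points, and a threshold of 3 Il4 UMIs gave 10.1 and -22.3.

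The members were next set against the Il4-high cells of the same library, to see which other transcripts go with a low Il4 count. In edgeR's quasi-likelihood test with the library as a block, 874 of 10103 genes passed an adjusted p of 0.05 (8.65%), of which 450 were higher (4.45%) and 424 lower (4.20%) in the members. The genes of the rule and Il4 are not in these counts. Il13 fell furthest among the genes named here. Genes induced by TCR signals fell with it, while some genes of the iNKT1 list (10 of 20), of thymic egress and homing (8 of 17) and of cytokine receptors and signalling (5 of 20) rose. Without the library block 1 gene, Il13, passed (608 at an unadjusted p under 0.05). Among cells of 10000 to 20000 UMIs, where the median depth was 14046, 14218, 13466.5 and 13694 in members against 16049, 15175, 16004 and 15542.5 in Il4-high cells, 250 genes passed. DESeq2 called 339 genes, 136 higher and 203 lower. Leaving out BALB/c 1 gave 351 and leaving out B6 2 gave 334. CPM values of this comparison and of the strain comparison differ slightly for the same cells, since each fit has its own scaling factors.

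Il13, the sister cytokine of Il4, was at 23.6 and 32.2 CPM in members of BALB/c 1 and 2 and at 22.6 and 19.0 in those of B6 1 and 2. In Il4-high cells it stood at 119.9 and 96.7 in BALB/c libraries and 115 and 118 in B6 libraries. Every library thus had less Il13 in the members (log2 fold change -2.24, SE 0.13, adjusted p = 1.95e-08), and the change was -2.64 among cells of 10000 to 20000 UMIs (adjusted p = 3.99e-11). At 5000 UMIs per cell an Il13 UMI was found in 3.76%, 7.60%, 3.95% and 4.93% of members, against 22.7%, 19.3%, 19.4% and 22.7% of Il4-high cells. The iNKT1 gate gave 0%, 0%, 0.165% and 0.192%, so the members lay between both. Without thinning the shares were 8.96%, 15.2%, 7.78% and 9.74% of members against 33.2%, 36.2%, 41.9% and 36.9% of Il4-high cells.

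Both cytokine genes lie on the minus strand of chromosome 11 in GRCm38, Il4 (ENSMUSG00000000869) at chr11:53602982-53618669 and Il13 (ENSMUSG00000020383) at chr11:53631324-53634702, with 12655 bases between them. Their promoters are printed because they belong to the gene that divides the gate and to the gene that fell furthest with it among those named. Each runs from 250 bases before to 50 bases after the start of the RefSeq transcript, 5′ to 3′ on the gene's strand (RefSeq, GRCm38.p6, at chr11:53618616-53618915 and chr11:53634653-53634952). Capitals mark GGAAA, the core that NFAT factors recognise, and TTTCC, its reverse complement.
Il4: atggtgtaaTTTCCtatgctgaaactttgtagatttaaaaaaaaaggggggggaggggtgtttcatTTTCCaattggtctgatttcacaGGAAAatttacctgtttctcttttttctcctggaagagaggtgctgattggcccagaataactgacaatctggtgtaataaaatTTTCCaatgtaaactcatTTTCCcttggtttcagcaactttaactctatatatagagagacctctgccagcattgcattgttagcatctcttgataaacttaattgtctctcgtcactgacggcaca
Il13: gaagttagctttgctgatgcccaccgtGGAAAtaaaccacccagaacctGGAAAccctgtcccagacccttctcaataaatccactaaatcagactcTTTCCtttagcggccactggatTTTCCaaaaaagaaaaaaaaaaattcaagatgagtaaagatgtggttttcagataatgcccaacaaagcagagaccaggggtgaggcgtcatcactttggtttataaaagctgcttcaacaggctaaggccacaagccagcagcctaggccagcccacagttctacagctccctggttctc
The Il4 window holds 1 GGAAA and 4 TTTCC, and the Il13 window 2 of each. Of 32851 promoter windows of the same length, 61.3% hold the motif on either strand, 2.65% hold it at least 4 times and 0.728% at least 5 times. These matches describe letters only, since no factor binding was measured.

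Other type 2 genes differed less. Of 16 tested genes of the iNKT2 and type 2 list, 4 were lower and 1 was higher in the members, with a median log2 change of -0.07 against 0.02 over all genes tested. Gata3 was at 89.4, 90.2, 109 and 92.7 CPM in members of BALB/c 1 and 2 and B6 1 and 2, against 106, 114, 193 and 117 in Il4-high cells (log2 fold change -0.38, SE 0.08, adjusted p = 0.00512). Hivep3 fell by 0.40 (SE 0.06, adjusted p = 0.000847) and Cd4 by 0.34 (SE 0.07, adjusted p = 0.0054). Each was lower in the members of every library, though Cd4 was not called without B6 2 (adjusted p = 0.0573). The chemokine receptor Ccr8 was higher, at 77.9, 74.2, 76.0 and 94.3 CPM against 44.7, 65.9, 57.4 and 50.3 (0.62, SE 0.10, adjusted p = 0.00132), but was not called among cells of 10000 to 20000 UMIs.

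Genes that TCR signals switch on were lower in the members. Of 23 tested genes of this early response list, 12 fell, 1 rose (Rgs1) and 10 did not pass, with a median log2 change of -0.26. Nr4a1, an orphan nuclear receptor used as a reporter of TCR signal strength, stood at 26.9 and 62.6 CPM in members of BALB/c 1 and 2 and at 18.8 and 24.9 in those of B6 1 and 2. In Il4-high cells Nr4a1 stood at 91.8 and 108 in BALB/c libraries and 55.8 and 48.0 in B6 libraries (log2 fold change -1.17, SE 0.13, adjusted p = 3.79e-05). The members were lower in each library, although BALB/c 2 members exceeded Il4-high cells of B6. Egr2, the factor through which TCR signals install PLZF, was at 38.1, 36.8, 53.9 and 22.8 CPM in members against 66.8, 57.0, 70.5 and 40.8 in Il4-high cells (-0.72, SE 0.09, adjusted p = 8.09e-05). Nfatc1, an NFAT factor that raises its own transcription after activation, was at 212, 202, 139 and 167 against 316, 332, 275 and 219 (-0.62, SE 0.07, adjusted p = 4.24e-05). All 4 libraries again went the same way for both.

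Surface proteins of activated T cells were among the 12. The inhibitory receptor Pdcd1 (PD-1) was at 223, 282, 162 and 147 CPM in members of BALB/c 1 and 2 and B6 1 and 2, against 369, 344, 287 and 254 in Il4-high cells (log2 fold change -0.63, SE 0.07, adjusted p = 6.2e-05). Cd200, a ligand that restrains myeloid cells, was at 22.0, 38.2, 23.6 and 15.5 against 43.9, 69.8, 37.7 and 42.9 (-1.08, SE 0.11, adjusted p = 1.83e-05). The rest of the 12 were Egr1, Egr3, Nfkbid, Cd5, Tnfrsf9, Ier2 and Lag3. Among cells of 10000 to 20000 UMIs 11 of 22 fell and none rose, and with the gate divided at 5 Il4 UMIs per 10000 UMIs 12 of 22 fell and 1 rose. Tnfsf11, the cytokine RANKL that iNKT cells and other thymocytes present to medullary epithelium, fell by 0.83 (SE 0.10, adjusted p = 7.11e-05), with 41.9, 47.6, 32.7 and 40.0 CPM in members against 70.4, 65.9, 78.7 and 83.5.

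**Figure D2:**
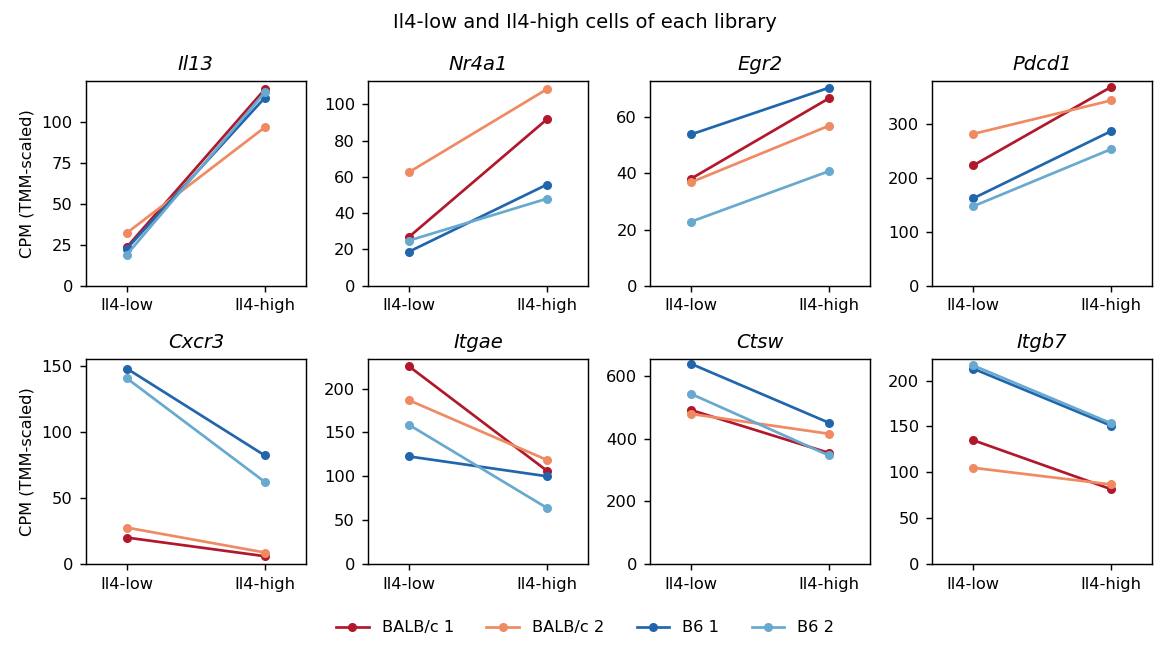
TMM-scaled CPM (y axis) of 8 genes in the summed Il4-low and Il4-high cells of each library (x axis), with 1 line per library. Il13, Nr4a1, Egr2 and Pdcd1 were lower, and Cxcr3, Itgae, Ctsw and Itgb7 higher, in the Il4-low cells of all 4 libraries.

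Transcripts of the iNKT1 program that the rule did not use were higher in the members. Of 20 tested genes of that list 10 rose, none fell and 10 did not pass, with a median log2 change of 0.54. Cxcr3, a chemokine receptor under T-bet control, was at 19.9 and 27.5 CPM in members of BALB/c 1 and 2 and 148 and 140.3 in those of B6 1 and 2, against 5.83 and 8.62 in Il4-high cells of BALB/c and 82.0 and 62.0 in those of B6. Each library thus showed the rise (log2 fold change 1.25, SE 0.11, adjusted p = 4.15e-06), at levels that differed between strains. Zfp683, which encodes the residency factor Hobit, was at 4.35, 4.61, 70.2 and 71.2 against 3.16, 3.06, 39.4 and 34.0 (0.95, SE 0.12, adjusted p = 0.000169), and was not called without B6 2 (adjusted p = 0.114). The cathepsin gene Ctsw, expressed in cytotoxic cells, rose by 0.46 (SE 0.06, adjusted p = 0.000175). Tbx21, which makes T-bet, was at 9.23, 7.33, 42.3 and 51.9 against 4.61, 3.33, 36.1 and 27.0 (0.87, SE 0.14, adjusted p = 0.000981). Tbx21 was called in 10 of 15 settings and not, for example, among cells of 10000 to 20000 UMIs (0.32, adjusted p = 0.595) or without B6 2 (adjusted p = 0.091). In that depth range 6 of 17 genes of the list rose and none fell, against 96 of 9178 genes higher over all. Without B6 2, 5 of 14 rose.

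Integrins and other homing genes moved in the same direction. Of 17 tested genes of thymic egress and homing 8 rose, 1 fell (Ccr10) and 8 did not pass, with a median of 0.45. Among cells of 10000 to 20000 UMIs 4 of 17 rose, and without B6 2 5 of 17. Itgae, the CD103 integrin chain that binds E-cadherin, was at 225, 187, 123 and 159 CPM in members of BALB/c 1 and 2 and B6 1 and 2, against 106, 119, 100.02 and 63.9 in Il4-high cells (log2 fold change 0.95, SE 0.10, adjusted p = 3.11e-05). Its partner chain Itgb7 was at 135, 105, 213 and 217 against 81.6, 86.7, 151 and 153 (0.50, SE 0.07, adjusted p = 0.00027). Both were higher in the members of every library, and both stayed called among cells of 10000 to 20000 UMIs (adjusted p = 5.95e-07 and 0.0133). The egress receptor S1pr1 was at 15.0, 14.7, 39.4 and 39.6 against 13.6, 13.9, 23.0 and 24.3 (0.45, SE 0.13, adjusted p = 0.0434), and was called in 6 of 15 settings, with an adjusted p of 0.565 without B6 2. Ccr7, the receptor of medullary chemokines, was not called (-0.12, SE 0.07, adjusted p = 0.348).

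The iNKT17 list had 7 of 13 tested genes higher and none lower, with a median of 0.33. Among cells of 10000 to 20000 UMIs 3 of 12 rose, and without B6 2 3 of 13. The largest change named was that of the water channel gene Aqp3 at 8.57, 8.36, 17.3 and 13.3 CPM against 5.58, 2.78, 4.92 and 3.89 (log2 fold change 1.36, SE 0.22, adjusted p = 0.00113). Il7r and Rora, which other lymphocytes also express, were among the 7. Of 20 cytokine receptor and signalling genes 5 rose and none fell, among them Il7r, Il21r and Il18r1. The immunoglobulin-like receptors Cd96 (0.79, SE 0.11, adjusted p = 0.00027) and Cd226 (0.88, SE 0.13, adjusted p = 0.000594) rose among 15 costimulatory and checkpoint genes, of which 4 rose and 4 fell. Precursor genes went both ways. Myb fell by 0.50 (SE 0.08, adjusted p = 0.00068), Lef1, Tox, Tox2 and Id3 fell too, and Itm2a, Satb1 and Bcl11b rose. Itm2a was at 172 CPM in members of B6 1 and at 55.1 in those of B6 2, against 21.3 and 29.7 in their Il4-high cells (1.16, SE 0.19, adjusted p = 0.00125).

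Counts of several other lists were smaller among cells of 10000 to 20000 UMIs, where calls over all genes were fewer too (250 of 9178). Of 43 interferon response genes 20 rose and none fell in the members (median 0.30), yet 1 rose among cells of 10000 to 20000 UMIs, 9 with the gate divided per 10000 UMIs and 6 without B6 2. Of 17 glycolysis genes 7 fell and none rose, and 1 fell among cells of 10000 to 20000 UMIs. Ldha, lactate dehydrogenase, illustrates this with -0.31 (SE 0.04, adjusted p = 0.000372) over all members and -0.14 (adjusted p = 0.225) in that depth range. Of 20 dissociation and heat shock genes 8 fell, among them Hsp90ab1 by 0.24, and 3 of 19 in that depth range. Of 21 genes of the secretory pathway and unfolded protein response 2 fell, Ssr4 and Calr, and of 21 survival genes 3 rose and 1 fell. The part of depth in these differences was not tested beyond those values. Both tested B cell genes rose, Ighm by 0.87 (SE 0.11, adjusted p = 8.09e-05) and Cd74 by 1.35 (SE 0.35, adjusted p = 0.0228, called in 8 of 15 settings). The summed B cell list stood at 42.3, 91.1, 103 and 111 CPM in members against 16.2, 20.6, 85.8 and 60.5 in Il4-high cells, without scaling factors, with Ms4a1 at 0 in members of BALB/c 1 and of both B6 libraries. With cells holding at least 3 UMIs of other types left out, Cd74 was at -0.16 on the log2 scale and Ighm was still called.

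**Figure D3:**
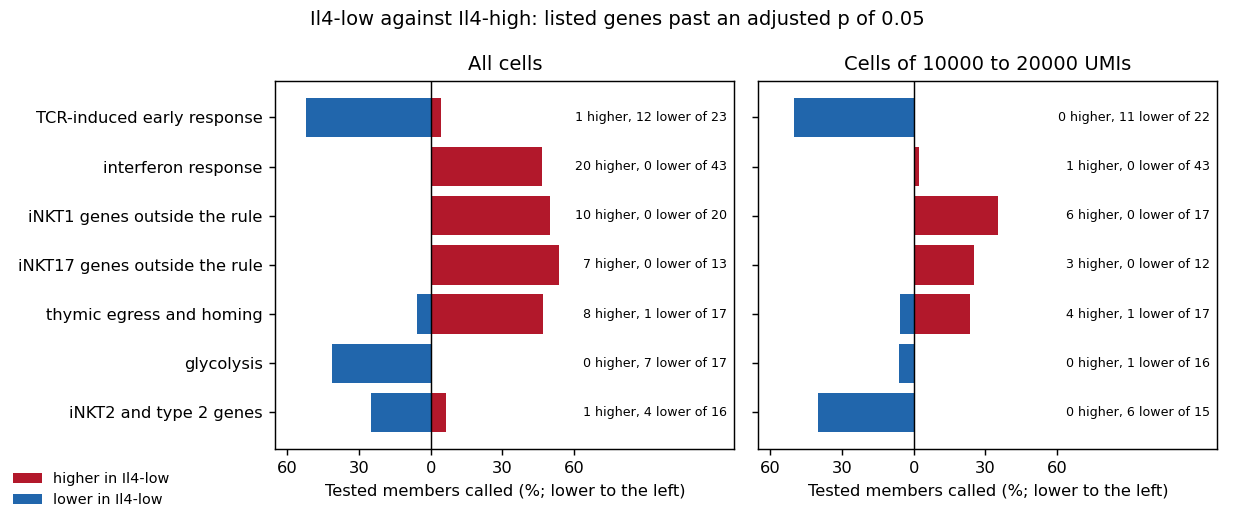
Share of the tested genes of 7 lists that passed an adjusted p of 0.05 (x axis, %; higher in Il4-low to the right, lower to the left) for all cells and for cells of 10000 to 20000 UMIs. The TCR response list had 11 of 22 genes lower in the second panel, against 12 of 23 in the first, while the interferon list had 1 of 43 against 20 of 43 higher.

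Several large changes were in genes outside the lists. Csf1, the macrophage growth factor, was at 16.4, 36.7, 26.0 and 21.3 CPM in members of BALB/c 1 and 2 and B6 1 and 2, against 52.9, 59.5, 184 and 76.5 in Il4-high cells (log2 fold change -1.62, SE 0.18, adjusted p = 4.24e-05). Nos1, a nitric oxide synthase, was at 6.46, 5.97, 13.0 and 11.1 against 23.3, 18.6, 29.5 and 53.4 (-1.94, SE 0.15, adjusted p = 1.14e-06). Akap6, a scaffold for protein kinase A, was at 2.24, 1.36, 20.7 and 40.9 against 10.2, 6.67, 42.6 and 136 (-1.72, SE 0.12, adjusted p = 6.35e-07). All 3 were lower in the members of each library. The myosin gene Myo6 fell by 2.22 (SE 0.17, adjusted p = 1.14e-06) and by 0.88 among cells of 10000 to 20000 UMIs (adjusted p = 0.045). Among the largest rises were the sialyltransferase St3gal6 (1.29, SE 0.19, adjusted p = 0.000491), Ctla2a (0.96, SE 0.13, adjusted p = 0.000267) and the PI3-kinase inhibitor Pik3ip1, at 33.1, 28.5, 24.5 and 25.2 CPM against 14.3, 15.8, 19.7 and 13.0 (0.96, SE 0.13, adjusted p = 0.000169).

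Finer classes of Il4 UMIs, given as a description without a test, showed that the members themselves were not uniform. On CPM without scaling factors, Il13 stood at 9.98, 28.9 and 25.2 in BALB/c 1 members with 0, 1 to 2 and 3 to 4 Il4 UMIs, and at 54.5 and 182 in Il4-high cells with 5 to 9 and 10 or more. In B6 2 the same classes gave 3.13, 21.5 and 43.6 in members and 84.0 and 184 in Il4-high cells. Cxcr3 went the other way, with 187, 164 and 81.0 in B6 2 members against 80.8 and 45.1 in Il4-high cells, and Itgae with 257, 215 and 200.5 in BALB/c 1 members against 120.4 and 84.0. Cxcr3 in B6 2 had its largest step between the classes of 1 to 2 and 3 to 4 Il4 UMIs, and Itgae in BALB/c 1 between those of 3 to 4 and 5 to 9, which the threshold divides. Mean depth moved with the classes too, at 12281, 14313 and 15859 UMIs per cell in BALB/c 1 members. Itm2a was concentrated in members without Il4, at 388 CPM in B6 1 and 104 in B6 2, against 79.1 and 38.2 in members with 1 to 2 Il4 UMIs.

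**Figure D4:**
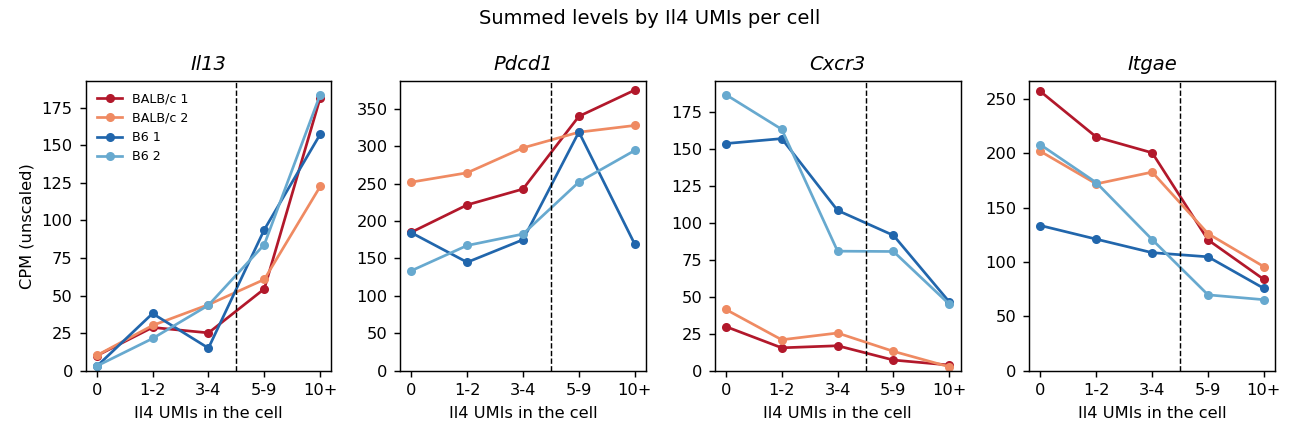
CPM without scaling factors (y axis) of 4 genes in cells of the iNKT2 gate summed by Il4 UMIs per cell (x axis), 1 line per library, with the rule's threshold dashed. Il13 and, in 3 of 4 libraries, Pdcd1 are highest at 10 or more Il4 UMIs, where B6 1 holds 7 cells, while Cxcr3 and Itgae are lowest there in all 4.

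The strains were then compared within Il4-low cells. Members from BALB/c held far less of the iNKT1 program and of interferon-induced genes than members from B6. Several genes of the egress and cell survival lists were lower in BALB/c members too. Of the iNKT2 and type 2 list 3 of 16 genes were called. Of 10833 genes tested by edgeR, 881 were called at an adjusted p of 0.05 (8.13%). BALB/c members had more of 380 (3.51%) and less of 501 (4.62%). The count depended on single libraries, at 122 without BALB/c 1, 164 without BALB/c 2, 4955 without B6 1 and 1406 without B6 2.

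Of 21 tested iNKT1 genes outside the rule 16 were lower in BALB/c members, none was higher and 5 did not pass, with a median log2 change of -2.38 against -0.02 over all genes tested. Without BALB/c 1 and without BALB/c 2 the list had 7 and 9 genes lower. Tbx21 stood at 9.36 and 7.43 CPM in BALB/c members and 42.8 and 52.5 in B6 members (8.39 ± 1.36 against 47.6 ± 6.81, SD, n = 2 each; log2 fold change -2.52, SE 0.20, adjusted p = 0.00172). Cxcr3 stood at 20.2 and 27.8 in BALB/c libraries and 149 and 142 in B6 libraries (-2.60, SE 0.17, adjusted p = 0.000934). Zfp683 stood at 4.41 and 4.67 in BALB/c libraries and 71.1 and 71.9 in B6 libraries (-3.98, SE 0.16, adjusted p = 0.000146). The strains were far apart for all 3, and all 3 remained called in each of the 15 settings run. Hopx, a homeodomain protein of effector lymphocytes, had 2 UMIs in BALB/c members and 437 in B6 members, a ratio of 214 (95% interval 59.0 to 1776, for counting error only). Klrb1c, the NK1.1 receptor gene that is known to differ between strains, was at 0.535 and 0.518 CPM in BALB/c libraries and 51.1 and 57.4 in B6 libraries (-6.65, SE 0.25, adjusted p = 0.000133). Ifng was scarce in both, at 0.401 and 0.173 against 4.38 and 3.66.

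Of 43 interferon response genes 19 were lower, 1 was higher (Ifi214) and 23 did not pass, with a median of -0.65. Ifit3 stood at 11.8 and 9.68 CPM in BALB/c members and 74.0 and 80.9 in B6 members (log2 fold change -2.85, SE 0.16, adjusted p = 0.000529). Oas1a, an RNA sensor that activates RNase L, had 0 UMIs in BALB/c members and 767 in B6 members, and was thus at least 251-fold lower in BALB/c, with 3 counts over the group taken as the floor. Trim12a, of a cluster of restriction factors, had 2 UMIs in BALB/c members and 1287 in B6 members, a ratio of 631 (95% interval 174 to 5218). Reads of both strains were counted against mm10, a genome of B6 origin, and members of the Oas, Trim, Ifi200, Ly6 and Klr families have close copies, so such near-absences are uncertain. The list had 7 genes lower without BALB/c 1 and 7 without BALB/c 2.

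The iNKT2 and type 2 list gave 2 genes higher and 1 lower of 16. Ccr4 stood at 178 and 189 CPM in BALB/c members and 94.9 and 95.3 in B6 members (log2 fold change 0.95, SE 0.11, adjusted p = 0.00562). Cd4 stood at 125 and 133 in BALB/c libraries and 73.0 and 84.4 in B6 libraries (0.70, SE 0.12, adjusted p = 0.0217). The strains did not overlap in either, but neither was called without BALB/c 1 or without BALB/c 2 (adjusted p up to 0.133 and 0.309). Gata3 was at 90.6 and 91.4 in BALB/c libraries and 110.0 and 93.6 in B6 libraries (-0.15, SE 0.12, adjusted p = 0.51), and Il13 at 23.9 and 32.7 in BALB/c libraries and 22.9 and 19.2 in B6 libraries (0.46, SE 0.21, adjusted p = 0.247). A missed threshold does not show that these were equal.

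The TCR response list had 3 of 24 genes called between the strains in edgeR, against 8.13% of all genes, and 8 in DESeq2, 2 higher and 6 lower. The 3 calls did not hold with either BALB/c library left out, where 1 library stood for the strain and calls over all genes fell far too. Of the 24 tested genes 1 was higher in BALB/c, Pdcd1 (226 and 285 against 164 and 149 CPM, log2 fold change 0.71, SE 0.15, adjusted p = 0.0358), and 2 were lower, Fos and Bhlhe40. Pdcd1 was called in 11 of 15 settings, with an adjusted p of up to 0.475 (without BALB/c 2). Nr4a1 (0.97, SE 0.39, adjusted p = 0.197) and Egr2 (0.11, SE 0.37, adjusted p = 0.894) were not called, with wide gaps between libraries of 1 strain. Egr2 stood at 38.6 and 37.3 CPM in BALB/c members and 54.5 and 23.0 in B6 members, so the B6 libraries lay on either side of BALB/c.

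Some genes of the egress and cell survival lists were lower in BALB/c members. Of 18 egress and homing genes 7 were lower and none higher. S1pr1 stood at 15.2 and 14.9 CPM in BALB/c libraries and 39.9 and 40.0 in B6 libraries (log2 fold change -1.41, SE 0.15, adjusted p = 0.00431), and Klf2 at 69.1 and 69.8 in BALB/c libraries and 129 and 113 in B6 libraries (-0.79, SE 0.12, adjusted p = 0.0138). Of 21 genes of the cell survival list 9 were lower and none higher, including 4 GTPases of the GIMAP family, which sustain lymphocyte survival. That list also holds genes that promote cell death, and Bcl2l11, Casp8, Fas and Fasl were lower as well. Gimap3 stood at 9.89 and 13.5 CPM in BALB/c libraries and 136 and 114 in B6 libraries (-3.42, SE 0.19, adjusted p = 0.000529), and the anti-apoptotic Bcl2 averaged 23.7 ± 3.11 in BALB/c members and 58.9 ± 12.5 in B6 members (SD, n = 2 each; -1.28, SE 0.19, adjusted p = 0.014). Most calls of both lists did not hold with either BALB/c library left out, where 1 library stood for the strain and calls over all genes fell too. Of precursor genes, Tcf7 and Id3 were higher in BALB/c members and Ccr9 and Drosha lower among 18 tested.

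Heat shock genes and genes listed for gamma-delta T cells also differed between the strains' members. Of 21 dissociation and heat shock genes 9 were higher and 2 lower in BALB/c, with the inducible chaperone Hspa1a at 59.3 and 141 CPM in BALB/c libraries and 2.43 and 4.20 in B6 libraries (log2 fold change 4.69, SE 0.52, adjusted p = 0.00521). The summed level of that list in members was 9601 and 11273 CPM in BALB/c libraries and 7566 and 7779 in B6 libraries, without scaling factors. A part of handling in any strain difference was not tested, and library preparation and strain cannot be told apart. Sox13, a factor of gamma-delta T cells, stood at 74.2 and 62.9 CPM in BALB/c libraries and 4.87 and 12.0 in B6 libraries (2.77, SE 0.29, adjusted p = 0.00435), with Tcrg-C4 and Tcrg-C1 also higher among 5 tested genes of that lineage. The summed level of the 7 listed genes was 826 and 556 CPM in BALB/c members and 308 and 353 in B6 members. In Il4-high cells that sum was 713 and 606 CPM in BALB/c libraries and 438 and 401 in B6 libraries. A TCR beta variable segment (Trbv) was called in 530 of 547 and 398 of 409 BALB/c members and 158 of 167 and 940 of 1006 B6 members. The part of the gamma-delta list in other differences was not tested. Among the largest rises in BALB/c members were the relaxin-family hormone gene Rln3 (4.47, SE 0.20, adjusted p = 0.000252) and the Notch target Hey1 (4.24, SE 0.44, adjusted p = 0.00423). Ly6a, the antigen Sca-1, was among the largest falls, at 14.7 and 17.8 CPM in BALB/c libraries and 476 and 408 in B6 libraries (-4.77, SE 0.16, adjusted p = 0.000127).

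**Figure D5:**
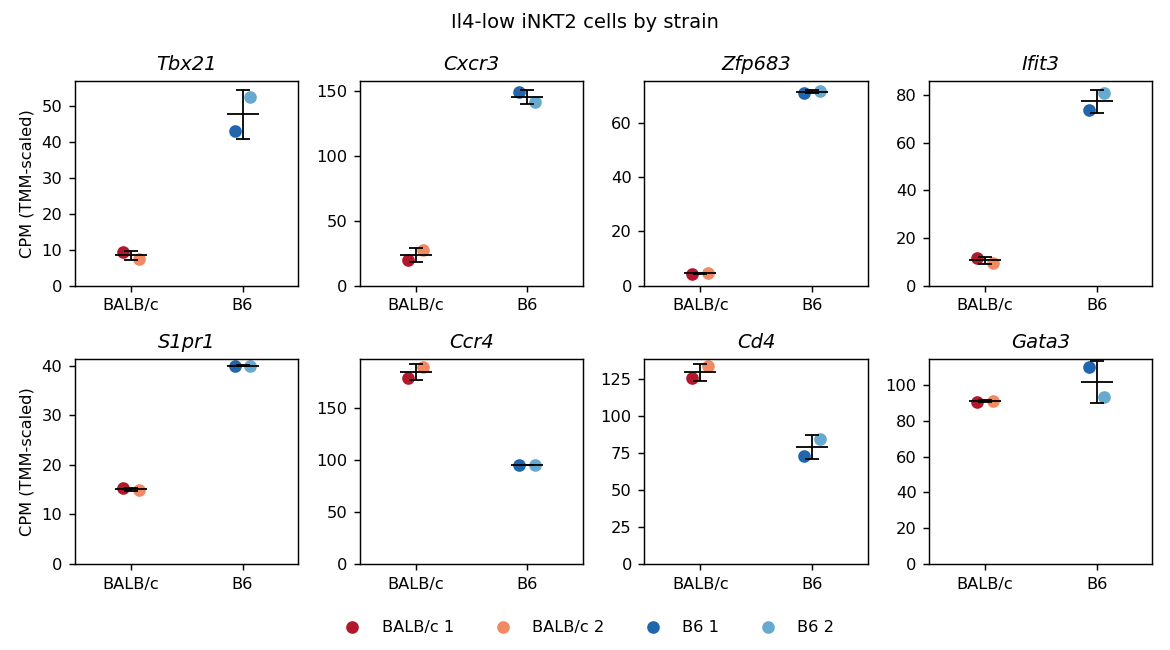
TMM-scaled CPM (y axis) of 8 genes in the summed Il4-low cells of each library, BALB/c left and B6 right, with the mean and SD of 2 libraries. Tbx21, Cxcr3, Zfp683, Ifit3 and S1pr1 were lower in BALB/c, Ccr4 and Cd4 higher, and Gata3 did not pass the test.

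Few genes passed the test for a strain difference that itself differed between Il4-low and Il4-high cells, which does not show that few differed. The interaction of strain and Il4 class passed for 14 of 10794 genes (0.13%), 9 with a more positive BALB/c effect in members (0.0834%) and 5 with a more negative one (0.0463%). Igfbp4, which binds insulin-like growth factors, stood at 176 and 178 CPM in BALB/c members and 164 and 137 in B6 members, while its Il4-high values were 158 and 129 in BALB/c libraries and 239 and 217 in B6 libraries (difference of log2 changes 0.93, SE 0.12, adjusted p = 0.00245). Peli1, a ubiquitin ligase that limits T cell activation, stood at 80.9 and 78.2 in BALB/c members and 110.4 and 128 in B6 members, against 65.0 and 66.9 in Il4-high cells of BALB/c and 60.3 and 62.0 in those of B6 (-0.74, SE 0.14, adjusted p = 0.0342). The Peli1 difference was called in 5 of 14 settings, with an adjusted p of up to 1.0 (cells of 10000 to 20000 UMIs), and that of Igfbp4 in 12 of 14. Il4-high cells of B6 1 were only 31, so these values rest on few cells. The count was 198 without B6 1 and 24 without BALB/c 1.

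Beta chain segments were compared too, since iNKT receptors use chiefly Trbv13, Trbv29 and Trbv1. Trbv13 was the main segment in 69.4% and 59.0% of callable members in BALB/c 1 and 2 and in 60.1% and 64.6% in B6 1 and 2 (64.2% ± 7.35 against 62.4% ± 3.15, SD, n = 2 each). The difference of 1.89 points was smaller than the spread in either strain (exact two-sided permutation p = 1.0). Against Il4-high cells of the same library, Trbv13 in members was 1.99 points higher on average (exact sign-flip permutation p = 0.5). Trbv29 made up 14.5% and 12.3% of members in BALB/c libraries and 20.3% and 20.6% in B6 libraries, against 19.3% and 14.7% of Il4-high cells in BALB/c libraries and 23.3% and 29.8% in B6 libraries. It was thus lower in the members of all 4 libraries, by 4.87 points on average (exact permutation p = 0.125, the smallest that 4 pairs allow, and 0.375 adjusted over 6 comparisons). Trbv1 went the other way, at 9.62%, 21.6%, 10.1% and 10.2% of members of BALB/c 1 and 2 and B6 1 and 2, against 7.73%, 15.2%, 10.0% and 7.75% of Il4-high cells. The mean difference of 2.72 points had the same exact permutation p of 0.125 (0.375 adjusted). The number of genes per cell differed little between members and Il4-high cells at equal depth. Thinned to 5000 UMIs, members had 5.08, 26.8, 35.7 and 30.4 more genes on average than Il4-high cells of BALB/c 1 and 2 and B6 1 and 2 (mean 24.5, exact permutation p = 0.125), with 15, 1, 15 and 114 members and 0, 0, 0 and 4 Il4-high cells too shallow to enter.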

How the data were processed

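The authors deposited a matrix of raw UMI counts per gene and barcode for each library. Per the labels' protocols the kit was 10x Genomics 5' v2, and mm10 and Cell Ranger 7.1.0 stand in the submitters' processing notes. Each file lists 32285 genes. The members and gene lists were chosen with earlier results of these data known. UMIs were summed per library over Il4-low and over Il4-high cells. Tests on these sums used the quasi-likelihood fit of edgeR 4.0.16 after TMM scaling and filterByExpr, with strain alone or with Il4 class and the library as a block, and a threshold of 0.05 on Benjamini-Hochberg adjusted p over every gene in the fit. An SE was obtained from the log2 fold change and its F statistic. Genes named were the up to 4 members of lowest p of each list, a fixed set, the largest changes at 20 CPM or more, and for the interaction the 5 of lowest p in each direction, of which the text names some. A member of a list that was named only to complete a count was chosen after its values were seen. Trbv use was called from the segment with most UMIs, needing 2 or more and no tie. No doublets were removed, and removal by Scrublet score (0.8% per 1000 barcodes) was an alternative, as was DESeq2 1.42.0. Replicate numbers did not pair the strains (correlation of deviations -0.0079).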

Additional observations from a re-analysis of the deposited data

Results flagged for a closer look

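The interaction of strain and Il4 class passed for 14 genes (edgeR, library as a block), of which 10 are given here as log2 differences. They are the 5 of lowest p in each direction. Higher in BALB/c relative to B6 among Il4-low than among Il4-high cells were Cd74 at 2.78, Igfbp4 at 0.93, the steroid-converting reductase Akr1c18 at 4.23, Smtn at 1.34 and Trbv31 at 2.15. Lower were Ly6e at -0.59, the sialyltransferases St8sia1 at -1.24 and St6galnac3 at -1.15, Trbv5 at -4.43 and Peli1 at -0.74. Several depended on the setting, with Peli1 called in 5 of 14, Trbv5 in 7 of 13 and Smtn and St6galnac3 in 8 of 14. St8sia1 was called in 9 of 14 and Trbv31 in 10 of 14. Cd74, the invariant chain of MHC class II, stood at 18.6 and 57.7 CPM in Il4-low cells of BALB/c 1 and 2 and at 14.4 and 18.5 in those of B6 1 and 2. In Il4-high cells it stood at 2.92 and 8.08 in BALB/c libraries and 24.4 and 16.8 in B6 libraries. With cells that hold at least 3 UMIs of other cell types left out (14 Il4-low cells, 1 of them with B cell genes, and 1 and 4 Il4-high cells of BALB/c 2 and B6 2), the Cd74 difference was -0.30 (adjusted p = 0.972). Akr1c18 had 0 CPM in Il4-high cells of BALB/c 1 and in both classes of B6 1.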

How the results depend on the processing

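Of alternatives, cells of 10000 to 20000 UMIs and cells without RNA of other types were chosen after seeing the data. Both share differences kept their sign in every setting, and exact permutation could not go below 0.333 there. Leaving out 1 library gave 12.2 to 20.1 points for the share of kept cells, -16.3 to -11.4 for the share of the gate, 20.8 to 31.0 genes per cell and 0.391 to 4.71 points for Trbv13 against Il4-high cells. The strain difference in Trbv13 ran from -3.31 (without BALB/c 1) through -0.33 (without B6 1) to 7.08, and counted over Trbv UMIs it was -4.31, or -1.55 against Il4-high cells; the cause was not tested. The count of strain differences was 2325 with no filter on low counts, 570 with Il4 under 3 UMIs and 122 to 4955 with a library left out. The replicate number as a block gave 795. The count against Il4-high cells was 339 by DESeq2 (136 higher, 203 lower), 304 with the gate divided at 5 Il4 UMIs per 10000, 422 with cells thinned to 5000 UMIs, 250 among cells of 10000 to 20000 UMIs, 1 with no replicate block, and 334 to 806 with a library left out. The interaction count was 3 by DESeq2, 88 with no filter, 9 with Il4 under 3 UMIs, 9 among cells of 10000 to 20000 UMIs and 20 to 198 with a library left out. Turned in sign were the strain differences of Il13 among cells of 10000 to 20000 UMIs (-0.18), of Egr2 without B6 2 (-0.52, adjusted p = 0.023, against 0.74 without B6 1) and of Cd74 without cells of other types (-2.04), where Cd74 also turned against Il4-high cells (-0.16) and in the interaction (-0.30). Where 1 library remained for a strain, its spread was taken from the other strain. Depth limits most the 31 Il4-high cells of B6 1, with 629529 UMIs.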
